A study of Mus musculus with 16 samples.

Results

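The genes described are 9 enzymes of the tricarboxylic acid (TCA) cycle, named as such: Cs, Idh3a, Idh3b, Idh3g, Ogdh, Dlst, Suclg1, Fh1 and Mdh2. They were found by symbol among 55414 gene IDs, each matched 1 ID, and all 9 were among the 18946 genes with enough counts to be tested. RNA-seq counts came from 16 subcutaneous tumours of B6MyC-CaP, a line of prostate cancer cells made from Hi-MYC mice, in which a MYC transgene is driven in the prostate. All hosts were male C57BL/6 mice aged 6 weeks at implantation, and the same line was used in every group, controls included. Mice were randomized to 4 groups of 4 tumours. Vehicle mice ate chow freely and received no enzalutamide, ENZ mice ate freely and received the antiandrogen enzalutamide at 20 mg/kg by gavage each day, ADF mice were fasted for 24 h and then fed for 24 h in turn without enzalutamide, and ADF+ENZ mice had both. Whether a tumour was collected on a fasted or a fed day is not stated, and neither is whether each tumour came from its own mouse, so the p-values reflect only how these 16 samples spread.

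The TCA cycle runs in the mitochondrial matrix. It oxidizes acetyl groups from pyruvate, fatty acids and amino acids to carbon dioxide, passes the electrons to the respiratory chain as NADH and FADH2, and supplies citrate, 2-oxoglutarate and oxaloacetate for lipid and amino acid synthesis. Citrate synthase (Cs) starts a turn, NAD-dependent isocitrate dehydrogenase (Idh3a, Idh3b, Idh3g) and 2-oxoglutarate dehydrogenase (Ogdh, Dlst) carry out the oxidative decarboxylations, and succinyl-CoA ligase (Suclg1), fumarase (Fh1) and malate dehydrogenase (Mdh2) return the carbon to oxaloacetate. Normal prostate epithelium is known for letting citrate build up by slowing its oxidation, a habit that prostate cancers lose.

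The libraries held 10072489 to 25505655 gene counts each, and a member had between 251 and 5425 counts in a library. The ADF libraries stood apart in make-up: 30.3% to 36.7% of their reads lay in no annotated feature, against 21.2% to 27.9% in the other 12 libraries. They also had fewer reads that aligned to several places (4.10% to 5.03%, against 6.51% to 7.96%) and fewer that were ambiguous between genes (2.71% to 3.02%, against 3.44% to 5.26%). The part of these differences in the results below was not tested beyond a fit that holds the percent in no feature as a term, called the no-feature covariate. The ADF range of this percent does not overlap that of the other libraries, so the fit cannot tell it apart from ADF. A call lost in that fit is therefore not shown to be false. Of 11 prostate epithelial markers, Pbsn had 0 counts in each group and the luminal keratin Krt8 had a mean of 456 to 594 CPM by group. CPM is the count relative to library size, scaled by TMM, a normalization between libraries. Markers of skeletal muscle, a tissue rich in TCA enzymes, summed to between 2.87 and 33.0 CPM per library over 12 genes, and those of adipocytes to between 1.97 and 22.3 CPM over 8 genes. Fibroblast markers summed to 9156 to 13689 CPM over 7 genes and macrophage markers to 1996 to 3084 CPM over 9 genes. Single markers moved between groups by edgeR's adjusted p: in ADF against Vehicle 1 macrophage and 1 fibroblast marker fell, in ADF+ENZ against ADF 1 of 5 tested prostate epithelial markers fell, and in ENZ against Vehicle 2 of 6 endothelial markers rose and 1 macrophage marker fell. In ADF+ENZ 1 fibroblast marker rose against Vehicle and 1 against ENZ, and 1 macrophage and 1 prostate epithelial marker fell against Vehicle. Their part in the members' values was not tested. In such bulk samples fewer cells of a type and less RNA per cell cannot be told apart.

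Few differences in transcript level between the 4 groups passed the test for these enzymes. With enzalutamide alone, none of the 9 members passed the threshold of an adjusted p under 0.05, and 4 lay below and 5 above Vehicle. In ADF without enzalutamide, 8 of 9 members lay below Vehicle, where 48.9% of all genes did, with changes from -18.0% to -11.7% and Dlst the exception, but none passed. With both treatments the members lay on both sides of Vehicle. The calls came in ADF+ENZ against ADF, where Idh3a and Mdh2 were 26.7% and 27.1% higher. Of all genes 16.3% were called there, and 8.72% were called higher. Both calls ended with the no-feature covariate, at 0.09 for Idh3a and -0.11 for Mdh2 on the log2 scale. All tests were edgeR's quasi-likelihood test with Benjamini-Hochberg adjustment over all 18946 genes.

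**Figure D1:**
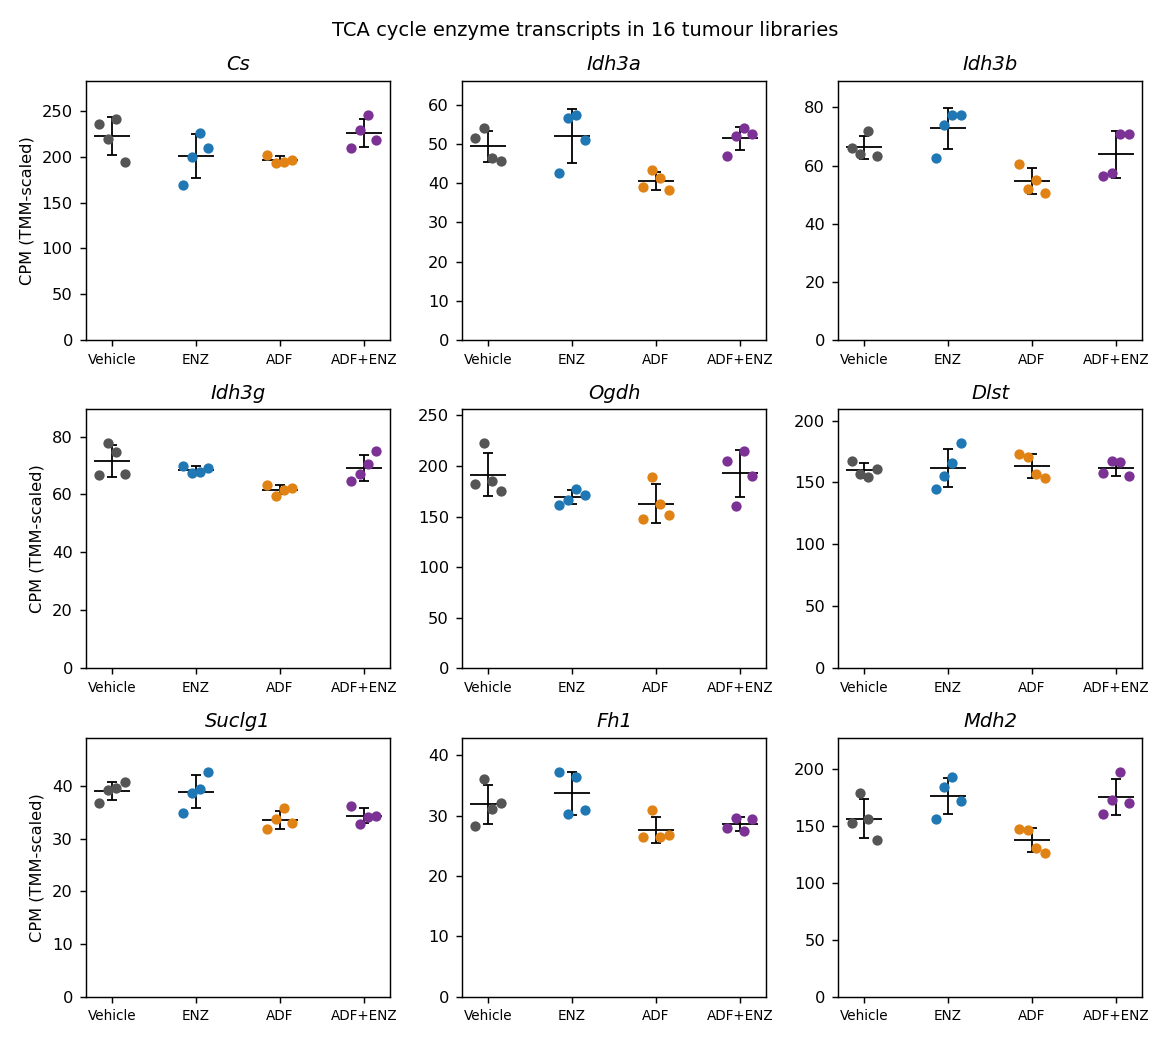
CPM of the 9 members (y axis, TMM-scaled, starting at 0), with 1 point per library, the mean as a bar and the SD as a whisker for the 4 libraries of each group. Idh3a in ADF lay between 38.3 and 43.4 CPM, below all 4 Vehicle and all 4 ADF+ENZ libraries, and Dlst had nearly the same mean in every group.

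Levels of different genes can be compared only per length. As CPM per kilobase of all annotated exons, averaged over 16 libraries, Mdh2 (45.2 ± 5.95, SD, n = 16) and Cs (36.7 ± 3.60) led, followed by Ogdh (32.8 ± 3.96), Idh3g (25.1 ± 1.86), Idh3b (18.8 ± 2.55), Dlst (16.9 ± 0.961), Idh3a (9.53 ± 1.22), Fh1 (8.99 ± 1.03) and Suclg1 (7.90 ± 0.702). Neighbours such as Idh3a and Fh1, or Idh3b and Dlst, lay within their spread. The place of Dlst rests on its long exon set, 9559 bases of which 1362 are coding. Per kilobase of coding length Dlst had 119 ± 6.75, next after Mdh2 at 154 ± 20.2 and Cs at 152 ± 14.9, and Fh1 was last at 19.3 ± 2.22. By either length Mdh2 and Cs were the highest in each of the 4 groups.

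The 9 genes moved over a narrow range. The coefficient of variation over 16 libraries, in percent of the mean CPM, was lowest for Dlst at 5.68 and highest for Idh3b at 13.5. The sum of the 9 members was 988 ± 54.3 CPM in Vehicle, 974 ± 69.0 with ENZ, 879 ± 34.8 with ADF and 1003 ± 54.3 with ADF+ENZ (SD, n = 4). ADF libraries lay between 838 and 919 CPM, ENZ libraries between 879.6 and 1040.4, and Vehicle libraries at 917 and above, and ADF+ENZ libraries at 963.9 and above, so the highest ADF library passed the lowest Vehicle library and no ADF+ENZ library.

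Citrate synthase joins acetyl-CoA to oxaloacetate and is a common marker of mitochondrial content. Cs (chromosome 10, 128337734 to 128362479, plus strand, of GRCm38, the build of the annotation used for names) had 236, 219.8, 241 and 194 CPM in the 4 Vehicle libraries, 169.6, 200.0, 226 and 209 with ENZ, 203, 194, 194 and 196 with ADF, and 209.6, 230.1, 246 and 219 with ADF+ENZ. The ADF libraries were the tightest group and lay wholly below ADF+ENZ, while those of Vehicle and ENZ spanned both. Cs was 0.20 higher on the log2 scale in ADF+ENZ than in ADF (95% interval 0.01 to 0.39), which did not pass (edgeR adjusted p = 0.128). ADF against Vehicle gave -0.18 (95% interval -0.37 to 0.01, edgeR adjusted p = 0.211).

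The 250 bases before the start of Cs are shown because they hold a pair of CCAAT boxes, the binding letters of the factor NF-Y, a common motif found for 4 of 8 members and for 37.9% of all genes. Sequences are from RefSeq on GRCm38.p6, written 5′ to 3′ on the gene's strand, and capitals mark motif matches. The Cs sequence, chr10:128337477-128337726 on the plus strand, holds CCAAT at 116 and 55 bases before the start.
Cs: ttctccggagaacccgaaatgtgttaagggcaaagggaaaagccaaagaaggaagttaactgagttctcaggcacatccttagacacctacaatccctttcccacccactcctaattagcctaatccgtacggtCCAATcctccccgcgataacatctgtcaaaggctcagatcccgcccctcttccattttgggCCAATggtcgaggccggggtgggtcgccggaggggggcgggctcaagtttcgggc

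Isocitrate dehydrogenase 3 is a complex of a catalytic alpha subunit (Idh3a) with beta (Idh3b) and gamma (Idh3g) subunits, the gamma subunit being regulatory, and it commits isocitrate to oxidation. Idh3a (chromosome 9, 54586334 to 54604661, plus strand) had 51.5, 54.0, 46.5 and 45.7 CPM in Vehicle, 42.5, 56.7, 57.4 and 51.1 with ENZ, 39.1, 43.4, 41.4 and 38.3 with ADF, and 47.1, 52.1, 54.0 and 52.5 with ADF+ENZ. All 4 ADF libraries were lower than every library of Vehicle and of ADF+ENZ, and 1 ENZ library fell among them. Its mean rose from 40.5 ± 2.32 CPM in ADF to 51.4 ± 3.02 in ADF+ENZ (SD, n = 4; log2 0.34, SE 0.0946, 95% interval 0.14 to 0.54, edgeR adjusted p = 0.0217). That call was lost without ADF replicate 4 (0.32) or ADF+ENZ replicate 3 (0.32), and with the no-feature covariate (0.09). ADF against Vehicle was -0.29 (95% interval -0.48 to -0.09, edgeR adjusted p = 0.0605), which did not pass in edgeR but did in DESeq2.

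The partner subunits were also lowest on average in ADF. Idh3b (chromosome 2, 130279309 to 130284547, minus strand) had 66.1, 64.0, 72.1 and 63.3 CPM in Vehicle, 62.6, 74.0, 77.3 and 77.5 with ENZ, 60.6, 51.9, 55.1 and 50.5 with ADF, and 56.4, 57.5, 70.9 and 70.7 with ADF+ENZ. The ADF libraries lay below Vehicle and ENZ, and the ADF+ENZ libraries split into a low and a high pair. Its change in ADF against Vehicle was -0.28 on the log2 scale (95% interval -0.48 to -0.08, edgeR adjusted p = 0.0663); it passed in DESeq2 and in limma-voom. Idh3b shares 5 exonic bases with Nop56 on the opposite strand.

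Idh3g (chromosome X, 73778963 to 73786897, minus strand) had 66.7, 77.7, 74.6 and 66.9 CPM in Vehicle, 69.96, 67.4, 67.7 and 69.2 with ENZ, 63.2, 59.6, 61.6 and 62.4 with ADF, and 64.5, 67.2, 70.4 and 74.8 with ADF+ENZ. Every ADF library was below every library of the other 3 groups. ADF against Vehicle was -0.21 on the log2 scale (95% interval -0.36 to -0.06, edgeR adjusted p = 0.0645), and it passed in DESeq2 and, in edgeR, without Vehicle replicate 1 (-0.25). ADF+ENZ against ADF was 0.17 (95% interval 0.02 to 0.32, edgeR adjusted p = 0.109). The 130 bases before the start of Idh3g, chrX:73786898-73787027 on the minus strand, are shown because Idh3g separated ADF from all other groups, and capitals mark the letters CCGGAAG of ETS factors at 104 bases before the start.
Idh3g: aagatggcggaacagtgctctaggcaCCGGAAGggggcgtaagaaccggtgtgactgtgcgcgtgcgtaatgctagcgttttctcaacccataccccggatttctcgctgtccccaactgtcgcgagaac

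No difference in the balance of the subunits between groups passed an exact permutation test. Ratios of raw counts within a library do not depend on library scaling. The ratio of Idh3a to Idh3b counts was 0.748 ± 0.0845 in Vehicle, 0.712 ± 0.0508 with ENZ, 0.748 ± 0.0787 with ADF and 0.811 ± 0.0746 with ADF+ENZ (SD, n = 4). Idh3a to Idh3g was 0.694 ± 0.0609 in Vehicle, 0.759 ± 0.113 with ENZ, 0.659 ± 0.0538 with ADF and 0.743 ± 0.0346 with ADF+ENZ. Group ranges overlapped for each of the 4 ratios examined in each of 5 comparisons. Of these 20 exact two-sided permutation tests 0 gave an unadjusted p under 0.05. The smallest exact p was 0.0571, for Idh3a to Idh3g in ADF+ENZ against ADF (adjusted p = 0.381), where 70 assignments allow no p below 0.0286. With 20 tests adjusted together, 1 ratio at that floor could not pass alone, so these tests cannot show that the balance was the same.

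The 2-oxoglutarate dehydrogenase complex pairs the thiamine-dependent E1 subunit (Ogdh) with the lipoyl-bearing E2 core (Dlst). Ogdh (chromosome 11, 6291633 to 6356642, plus strand) had 182, 222, 185 and 175 CPM in Vehicle, 162, 166, 178 and 171 with ENZ, 147, 189, 163 and 152 with ADF, and 204, 161, 215 and 190.2 with ADF+ENZ. In each single treatment 3 of 4 libraries lay below all of Vehicle, and the ADF+ENZ libraries had the widest spread. The interaction, the fasting effect with drug minus the fasting effect without it, was 0.42 on the log2 scale (95% interval 0.12 to 0.72, edgeR adjusted p = 0.100). It passed in 1 of 16 fits with a library left out, that without ADF+ENZ replicate 2 (0.50).

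Dlst (chromosome 12, 85110833 to 85134845, plus strand) had 167, 157, 154 and 161 CPM in Vehicle, 145, 155, 165 and 182 with ENZ, 173, 171, 157 and 153 with ADF, and 158, 167, 166 and 155 with ADF+ENZ. The 4 groups lay over each other, with means from 159.7 to 164 CPM. ADF against Vehicle was 0.03 on the log2 scale with a 95% interval of -0.12 to 0.19 (edgeR adjusted p = 0.817), in percent -8.28% to 14.3%. The ratio of Dlst to Ogdh counts was 0.843 ± 0.101 in Vehicle, 0.956 ± 0.0725 with ENZ, 1.01 ± 0.118 with ADF and 0.851 ± 0.129 with ADF+ENZ (SD, n = 4). For ADF against Vehicle the difference of 0.27 in log2 ratio gave an exact two-sided permutation p = 0.0857 (adjusted p = 0.381).

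Suclg1, the alpha subunit shared by the GTP- and ATP-forming succinyl-CoA ligases, was low in both fasted groups. Suclg1 (chromosome 6, 73248382 to 73276911, plus strand) had 36.7, 39.2, 39.7 and 40.8 CPM in Vehicle, 34.9, 38.7, 39.4 and 42.7 with ENZ, 31.8, 33.7, 35.8 and 32.9 with ADF, and 36.2, 32.8, 34.1 and 34.3 with ADF+ENZ. No library of ADF or ADF+ENZ reached the lowest Vehicle library. ADF against Vehicle was -0.22 on the log2 scale (95% interval -0.38 to -0.06, edgeR adjusted p = 0.0809) and ADF+ENZ against Vehicle -0.19 (95% interval -0.35 to -0.02, edgeR adjusted p = 0.123). Neither passed in edgeR, and the first passed in DESeq2. ADF+ENZ against ADF was 0.03 (95% interval -0.13 to 0.20, edgeR adjusted p = 0.799).

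Fh1, fumarase, hydrates fumarate to malate and is a tumour suppressor in renal cancer. Fh1 (chromosome 1, 175600374 to 175625635, minus strand) had 28.3, 36.1, 31.2 and 32.1 CPM in Vehicle, 37.3, 30.4, 36.4 and 31.0 with ENZ, 26.5, 31.0, 26.5 and 26.7 with ADF, and 27.9, 29.7, 27.5 and 29.5 with ADF+ENZ. The ADF+ENZ libraries lay wholly below ENZ, and 3 of 4 ADF libraries lay below all of Vehicle. ADF+ENZ against ENZ was -0.23 on the log2 scale (95% interval -0.43 to -0.03, edgeR adjusted p = 0.246) and ADF against Vehicle -0.21 (95% interval -0.41 to -0.01, edgeR adjusted p = 0.176). The 250 bases before Fh1, chr1:175625636-175625885 on the minus strand, carry ATTGG, the reverse complement of CCAAT, at 70 and 19 bases before the start, in capitals.
Fh1: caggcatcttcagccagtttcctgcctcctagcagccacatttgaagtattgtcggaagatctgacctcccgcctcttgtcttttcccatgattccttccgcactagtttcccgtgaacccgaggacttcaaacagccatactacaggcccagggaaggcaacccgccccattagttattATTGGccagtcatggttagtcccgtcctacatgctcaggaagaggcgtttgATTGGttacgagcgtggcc

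Mdh2, mitochondrial malate dehydrogenase, regenerates oxaloacetate and works in the malate-aspartate shuttle. Mdh2 (chromosome 5, 135778480 to 135790398, plus strand) had 152, 179, 156 and 137 CPM in Vehicle, 156, 184, 193 and 172 with ENZ, 147, 146, 131 and 126 with ADF, and 160.1, 172, 197 and 169.7 with ADF+ENZ. ADF libraries lay below every library of both groups given enzalutamide and overlapped Vehicle. The mean rose from 137 ± 10.8 CPM in ADF to 175 ± 15.9 in ADF+ENZ (SD, n = 4; log2 0.35, SE 0.0942, 95% interval 0.15 to 0.54, edgeR adjusted p = 0.0202). The call was lost without ADF replicate 3 (0.32), ADF replicate 4 (0.31) or ADF+ENZ replicate 3 (0.28). With the no-feature covariate the value turned to -0.11.

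**Figure D2:**
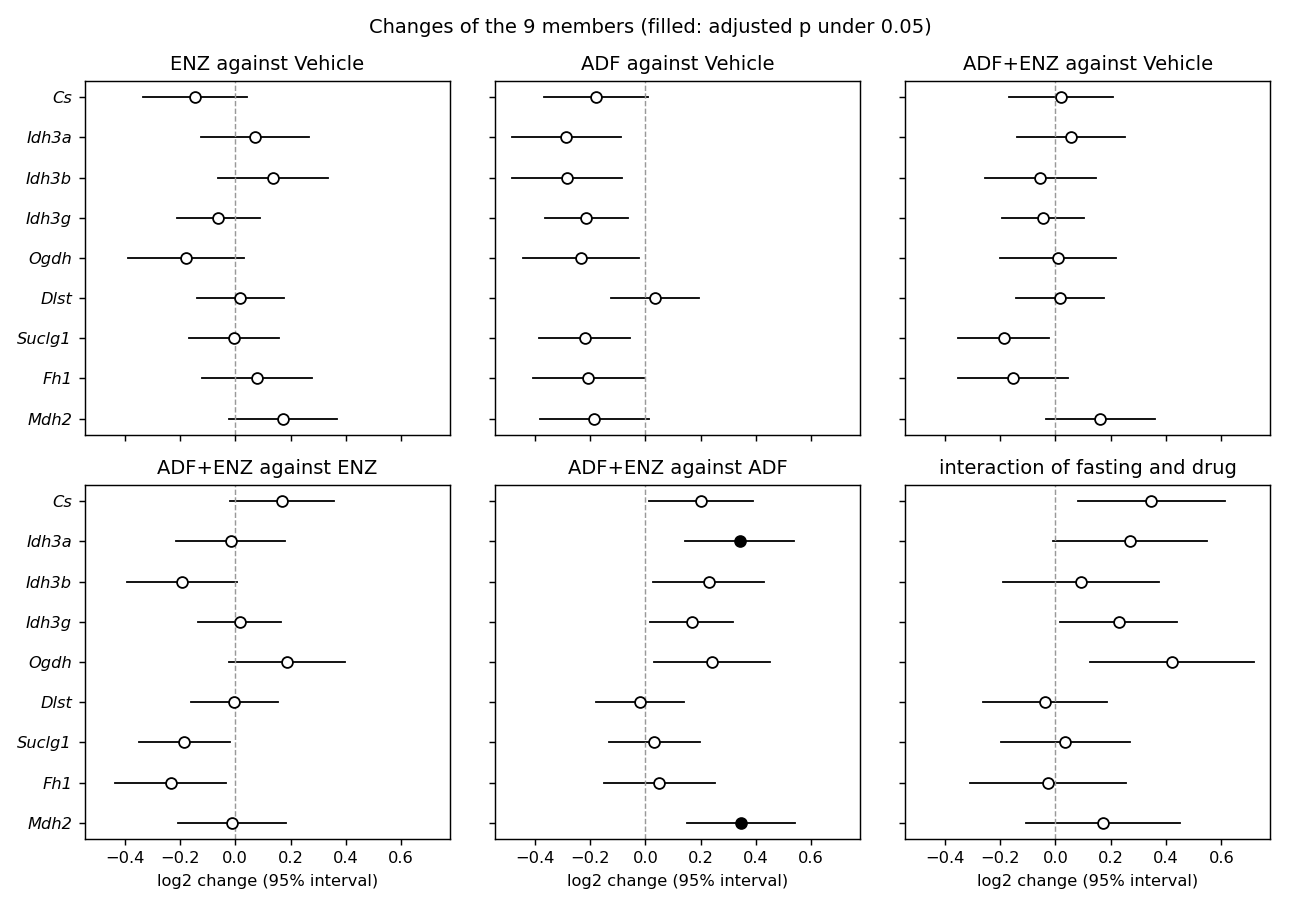
The log2 change of each member (x axis) with its 95% interval in 5 comparisons and the interaction, filled where the edgeR adjusted p was under 0.05. In ADF against Vehicle 8 of 9 members lay below 0, and the filled points are Idh3a (0.34) and Mdh2 (0.35) in ADF+ENZ against ADF.

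ENZ against Vehicle asks what the drug changed in freely fed mice. Of the 9 members edgeR called 0, where 5.43% of all genes were called, and 0 had an unadjusted p under 0.05, where 20.1% of all genes did. DESeq2 and limma-voom also called 0, where they called 10.7% and 8.74% of all genes. The median log2 change was 0.02, against 0.01 over all genes tested, and values ran from -0.18 (Ogdh) to 0.17 (Mdh2). The interval bound farthest from 0 was -0.39, for Ogdh.

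ADF against Vehicle asks what fasting changed without drug. Again edgeR called 0 members, where 9.01% of all genes were called. An unadjusted p under 0.05 was reached by 6 of 9, 66.7%, where 26.4% of all genes reached it. DESeq2 called 4, Idh3a, Idh3b, Idh3g and Suclg1, where it called 13.2% of all genes, and limma-voom called 1, Idh3b, where it called 12.4%. CPM ranges did not overlap for the 4 genes DESeq2 called, 44.4% of the members, where 16.5% of all genes did not overlap. The median was -0.21, against 0.01 over all genes, and 8 of 9 lay below 0, where 48.9% of all genes did. In the fit with the no-feature covariate Cs (0.01), Idh3b (0.00), Ogdh (0.06) and Mdh2 (0.18) moved to values above 0.

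ADF+ENZ against Vehicle and ADF+ENZ against ENZ gave 0 calls by edgeR, DESeq2 and limma-voom, where edgeR called 12.5% and 1.09% of all genes. DESeq2 called 15.1% and 5.02% of all genes, and limma-voom 12.7% and 1.59%. The unadjusted p was under 0.05 for 1 member, Suclg1, in the first, where 27.9% of all genes reached it, and for 2, Suclg1 and Fh1, in the second, where 15.7% did. CPM ranges did not overlap for Suclg1 in the first and for Fh1 in the second, where 17.3% and 8.67% of all genes did not. The medians were 0.01 and -0.01, against 0.00 and -0.01 over all genes. These comparisons share the ADF+ENZ libraries with each other, and the first shares the Vehicle libraries with those of the single treatments.

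ADF+ENZ against ADF asks what the drug changed in fasted mice. Idh3a and Mdh2 rose and none fell, 22.2% of the members, where 16.3% of all genes were called and 8.72% were called higher. The share of members called was near that of all genes called in either direction and above that called higher. It rests on 2 of 9 members, and the difference was not tested. An unadjusted p under 0.05 was reached by 6 of 9, 66.7%, where 32.9% of all genes reached it. CPM ranges did not overlap for 4, Cs, Idh3a, Idh3g and Mdh2, 44.4% of the members, where 20.5% of all genes did not overlap. The median was 0.20, against -0.02 over all genes. It rests on the same ADF libraries as ADF against Vehicle, and with the no-feature covariate 0 members and 0 genes in all were called.

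The interaction was called by edgeR for 0 of 9 members, where 3.1% of all genes were called, and by DESeq2 and limma-voom for 0, where they called 8.72% and 4.59%. An unadjusted p under 0.05 was reached by 3, Ogdh (0.42), Cs (0.35) and Idh3g (0.23), where 21.3% of all genes did. The median was 0.17, against -0.02 over all genes.

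**Figure D3:**
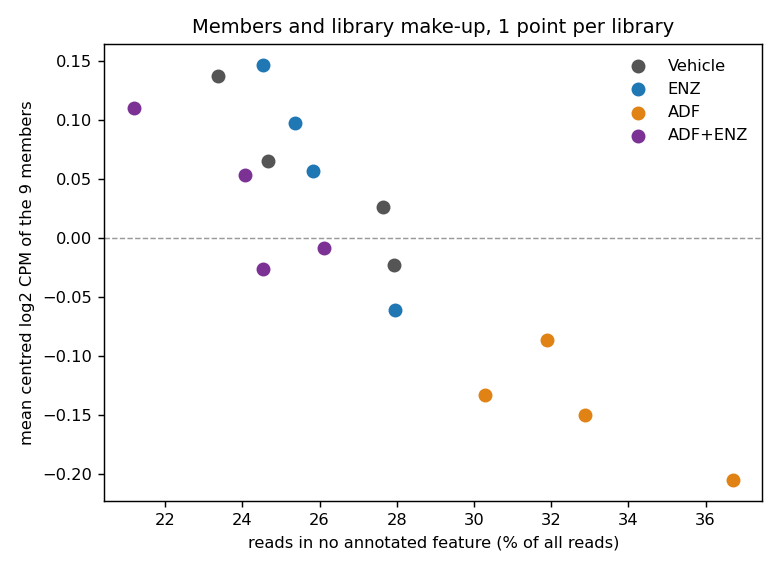
Mean of the 9 members' log2 CPM, each centred on its own mean over 16 libraries (y axis), against the percent of reads in no annotated feature (x axis), 1 point per library. The 4 ADF libraries lie at 30.3% and above on the x axis and between -0.21 and -0.09 on the y axis, and the lowest of the other 12 is at -0.06.

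Other enzymes of the cycle were taken from a list of 12 genes, of which 11 were tested. In ADF against Vehicle 2 fell and 1 rose, where 9.01% of all genes were called. Sdhc, a membrane anchor of succinate dehydrogenase, fell by 0.35 on the log2 scale (edgeR adjusted p = 0.0180) and Idh2, the NADP-dependent mitochondrial isocitrate dehydrogenase, fell by 0.23 (edgeR adjusted p = 0.0384), while Dhtkd1, of lysine breakdown, rose by 0.74 (edgeR adjusted p = 0.0480). The list's median was -0.24, close to that of the 9 members. DESeq2 and limma-voom each called 6 of the 11, where they called 13.2% and 12.4% of all genes. All 3 calls were lost with the no-feature covariate. The Sdhc, Idh2 and Dhtkd1 calls held in 5, 2 and 1 of 8 fits with a library left out. The Idh2 and Dhtkd1 calls were also lost without a filter and with only the groups compared. The Dhtkd1 call was further lost with skeletal muscle markers as a covariate, with protein-coding genes alone and in limma-voom. Sdhc lost its call without Vehicle replicate 2, Vehicle replicate 3 or ADF replicate 4.

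In ADF+ENZ against ADF 3 of the 11 rose and none fell, where 16.3% of all genes were called and 8.72% were called higher. Sdhb, the iron-sulfur subunit of succinate dehydrogenase, rose from 46.9 ± 5.74 to 67.6 ± 3.07 CPM (SD, n = 4; log2 0.53, edgeR adjusted p = 0.00262), and Sdhd rose by 0.30 (edgeR adjusted p = 0.0246). The Sdhb call held in 8 of 8 fits with a library left out and the Sdhd call in 4. Both were lost with the no-feature covariate, and the Sdhd call also with only the groups compared. Sdhb also rose in ADF+ENZ against Vehicle (0.29, edgeR adjusted p = 0.0426), in 1 of 8 fits with a library left out. That call was lost with the no-feature covariate, with skeletal muscle markers as a covariate and without a filter. In ENZ against Vehicle edgeR called 0 of the 11, where 5.43% of all genes were called. An unadjusted p under 0.05 was reached by 2, where 20.1% of all genes reached it. DESeq2 and limma-voom called 1 each, where they called 10.7% and 8.74% of all genes.

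Among 12 genes of pyruvate entry, Pdk1, a kinase that switches pyruvate dehydrogenase off, fell in all 3 comparisons with Vehicle. It went from 74.2 ± 22.1 CPM in Vehicle to 44.3 ± 6.39 in ENZ (log2 -0.74, edgeR adjusted p = 0.0165), 35.7 ± 2.95 in ADF (-1.05, edgeR adjusted p = 0.00194) and 32.7 ± 4.52 in ADF+ENZ (-1.19, edgeR adjusted p = 0.000528). The ENZ call was lost without Vehicle replicate 3, ENZ replicate 3 or ENZ replicate 4 and with only the groups compared, and the ADF call with the no-feature covariate. Pdha1, the E1 alpha subunit of pyruvate dehydrogenase, fell in the same 3 comparisons, by 0.31, 0.40 and 0.31 on the log2 scale (edgeR adjusted p = 0.0409, 0.00849 and 0.0246, holding in 2, 8 and 4 of 8 fits with a library left out). Its ADF call was lost with the no-feature covariate, its ENZ call in limma-voom, without a filter and with only the groups compared, and its ADF+ENZ call with only the groups compared. The phosphatase gene Pdp1 fell in ENZ by 0.55 (edgeR adjusted p = 0.0255), a call lost without Vehicle replicate 3, ENZ replicate 2 or ENZ replicate 3 and with only the groups compared. In ADF+ENZ against ADF Pdhb (0.43) and Dlat (0.24) rose (edgeR adjusted p = 0.00761 and 0.0330), holding in 8 and 3 of 8 fits with a library left out. Both calls were lost with the no-feature covariate. The Dlat call was also lost without a filter, with protein-coding genes alone and with only the groups compared. These comparisons share Vehicle or ADF libraries.

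Among 15 tested genes of anaplerosis and exit, Got1, the cytosolic aspartate aminotransferase, fell from 55.0 ± 5.90 CPM in Vehicle to 38.5 ± 3.30 in ENZ (edgeR adjusted p = 0.00394) and 36.9 ± 1.64 in ADF (edgeR adjusted p = 0.00193), and stood at 46.5 ± 5.31 in ADF+ENZ. Its interaction was 0.85 (edgeR adjusted p = 0.00632). The interaction call held in 16 of 16 fits with a library left out and, like the ADF call, was lost with the no-feature covariate. Pyruvate carboxylase, Pcx, which refills oxaloacetate, fell from 13.1 ± 3.83 CPM in Vehicle to 5.24 ± 1.86 in ADF+ENZ (log2 -1.29, edgeR adjusted p = 0.00274), as did the aminotransferase Gpt2 (-0.64, edgeR adjusted p = 0.00381). In ADF+ENZ against ADF 5 rose and 3 fell, where 16.3% of all genes were called and 8.72% were called higher. Among those that rose were Got2 (0.39), the oxoglutarate carrier Slc25a11 (0.37) and malic enzyme Me2 (0.53). Their calls held in 8, 5 and 6 of 8 fits with a library left out and were lost with the no-feature covariate. Only genes that rose are named for this comparison. Of a separate list of 5 cytosolic counterparts, 2 rose in ADF+ENZ against ADF and none fell, against the same shares of all genes. Of these, the cytosolic malate dehydrogenase Mdh1 rose by 0.45 (edgeR adjusted p = 0.00842). Its interaction was 0.52 (edgeR adjusted p = 0.0498), a call that held in 4 of 16 fits with a library left out. Both Mdh1 calls were lost with the no-feature covariate, and the interaction call also with protein-coding genes alone.

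Lists for cofactors and for mitochondrial biogenesis held few calls. Of 10 genes for lipoate, iron-sulfur clusters and assembly of succinate dehydrogenase, the scaffold gene Iscu rose in ADF+ENZ against Vehicle (0.40, edgeR adjusted p = 0.0116). Of all genes 12.5% were called there. The lipoate synthase gene Lias rose in ADF+ENZ against ADF (0.35, edgeR adjusted p = 0.0373), where 16.3% of all genes were called. The Lias call held in 2 of 8 fits with a library left out and was lost with the no-feature covariate. It was also lost with skeletal muscle markers as a covariate, with protein-coding genes alone and with only the groups compared. Of 12 tested regulators of mitochondrial biogenesis, Tfb1m (-0.80, edgeR adjusted p = 0.00806) and Polg (-0.26, edgeR adjusted p = 0.0473) fell in ADF+ENZ against Vehicle, where 12.5% of all genes were called. These calls held in 8 and 2 of 8 fits with a library left out. The Polg call was also lost with the no-feature covariate, with skeletal muscle markers as a covariate, without a filter, with only the groups compared and in limma-voom. Mouse Myc, namesake of the transgene, did not pass in any of the 6 comparisons (smallest edgeR adjusted p = 0.106).

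**Figure D4:**
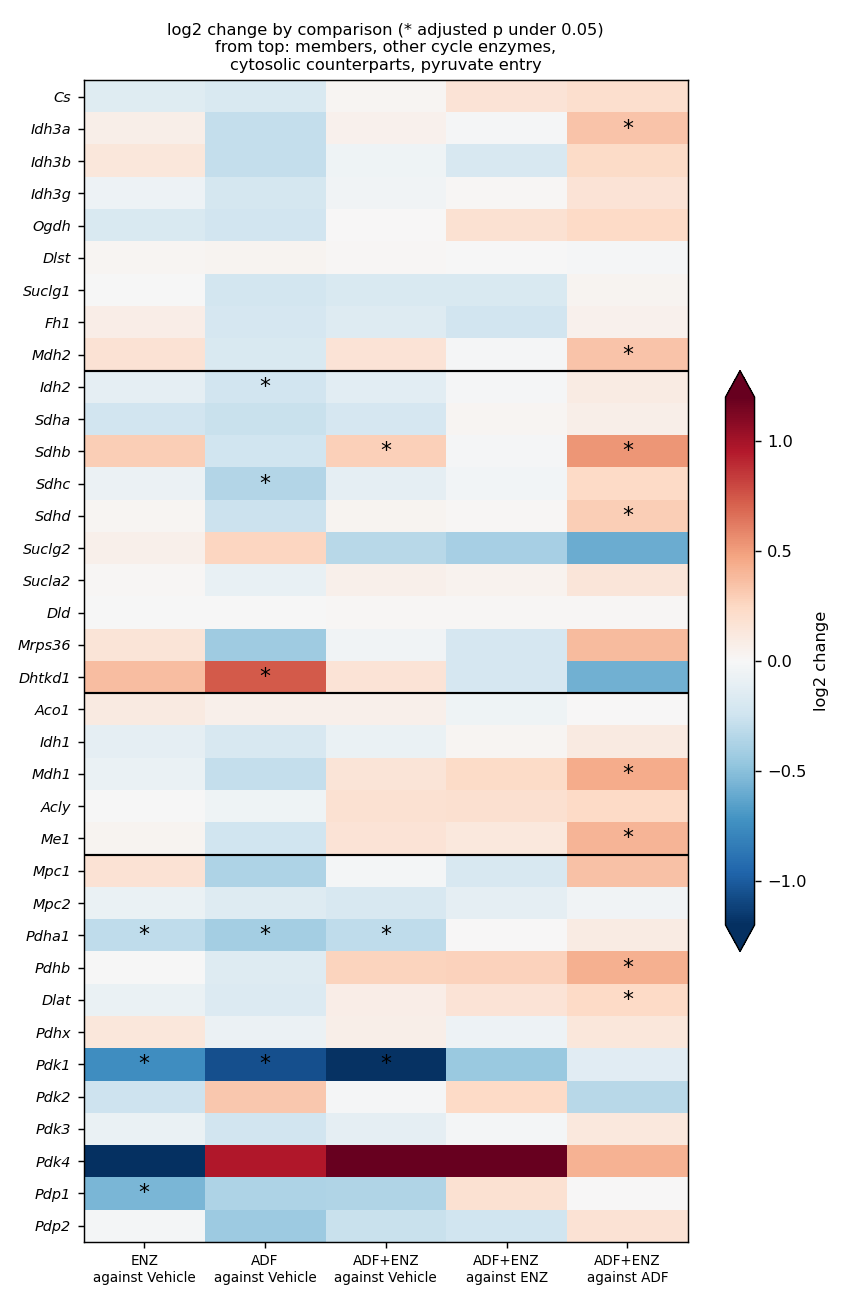
The log2 change (colour, cut at 1.2 in size) of 36 tested genes in 5 comparisons: the 9 members, other cycle enzymes, cytosolic counterparts and pyruvate entry genes, from top to bottom, with a star where the edgeR adjusted p was under 0.05. The stars in the ADF+ENZ against ADF column are all on higher values, Pdk1 is low in the 3 columns against Vehicle, and Pdk4 goes past the colour scale without a star.

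Genes outside the pathway with the pattern most like the members were found by the root-mean-square difference in centred log2 CPM over 16 libraries, among genes with a mean of at least 10 CPM. The nearest was Hadha, the alpha subunit of the mitochondrial trifunctional protein of fatty acid oxidation, at 0.0472, with 117 CPM in Vehicle, 117 with ENZ, 102 with ADF and 113 with ADF+ENZ. It was followed by Zdhhc5 (0.0524), G3bp2 (0.0565), Utp15 (0.0577), Tspan3 (0.0606), Kpna6 (0.0622), Rdx (0.0629), Atp2c1 (0.0638), the mitochondrial ribosomal protein gene Mrpl4 (0.0642) and Foxn2 (0.0655). Among the members, Idh3g was nearest to the mean of the others (0.0818) and Fh1 farthest (0.152).

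Promoter windows of 300 bases, 250 before the start and 50 after, were in the RefSeq table for 8 of the 9 members. Motifs were searched on both strands. CCAAT was found in windows of 4 of 8 members (Cs, Idh3b, Ogdh and Fh1), against 37.9% of all 27025 genes, and CCGGAAG in 3 (Idh3b, Idh3g and Dlst), against 9.12%. The E-box CACGTG, the letters that MYC binds, was found in 1, Ogdh, against 7.24%. The NRF1 letters GCGCATGC (2.8% of genes) and the ERR half-site AAGGTCA (4.66%) were each found in Ogdh, which has 6 windows where each of the others has 1. The shares of genes count only the first listed window of each gene, while a member was counted by any of its windows. The E-box, GCGCATGC and AAGGTCA lay only in later windows of Ogdh, so by the rule of the shares no member had them. The HIF letters ACGTG, which the E-box contains, were found in Idh3g and Ogdh, against 19.7%, and the longer NRF1 core in none, against 0.977%. Mdh2, the member with the smallest adjusted p, had no match in its window, and neither had Suclg1. For Mdh2 the stretch upstream of every annotated exon, chr5:135778399-135778479 on the plus strand, is printed for that reason. It runs from 250 to 170 bases before the start, so the bases next to the start are not shown.
Mdh2: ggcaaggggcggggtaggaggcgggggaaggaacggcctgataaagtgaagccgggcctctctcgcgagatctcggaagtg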

How the data were processed

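The authors deposited raw counts per gene and library, per the file headers, and builds mm39 and GRCh38 stand in the submitters' processing notes beside HISAT2, featureCounts, Trim Galore and DESeq2, without versions or roles. The 5 summary entries of the table stayed out of the tests. Symbols, exons and lengths came from an annotation on GRCm38, so no coordinate here is one the counting used. Strand settings are not given in the sources used here.

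Counts were fitted in edgeR 4.0.16 (R 4.3.3) over all 16 libraries, with TMM, filterByExpr (minimum count 10, total 15) and robust quasi-likelihood; the threshold was an adjusted p of 0.05. Alternatives were DESeq2 1.42.0, limma-voom (limma 3.58.1), other scaling, filters, covariates and gene classes, and leaving out each library. The fit was tested on simulated data with changes larger than any of the members', so that test does not show how it performs at their size. Intervals are 95%. The members, lists and named-gene rule (all members, up to 4 passing genes per list and comparison, the 10 genes most alike) were chosen with earlier results of these data known. Protein identity of the Idh3 subunits was planned and not analysed here. Some genes of the lists are not reported here.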

Additional observations from a re-analysis of the deposited data

Results flagged for a closer look

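In 2 cases 1 value stood apart from the other 3 libraries of their group by Dixon's test at the 95% level, among 52 groups of 4 examined, where chance flags about 1 in 20. Fh1 in ADF replicate 2 was 31.0 CPM, with the other ADF libraries at 26.5 to 26.7. The log2 ratio of Idh3b to Idh3g counts in ENZ replicate 1 was -0.16, below those of the other ENZ libraries.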

How the results depend on the processing

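Read as members called, ADF against Vehicle gave 4 in DESeq2 and 1 in limma-voom against 0, and ADF+ENZ against ADF gave 0 with the no-feature covariate against 2. Leaving out 1 library, the counts ran from 0 to 1 for ADF against Vehicle, 0 to 3 for ADF+ENZ against ADF and 0 to 1 for the interaction. Values below are log2 changes that turned sign; most lay near 0, and the cause was not tested. With the no-feature covariate these were Cs 0.011, Idh3b 0.0048, Ogdh 0.064 and Mdh2 0.18 in ADF against Vehicle, Cs -0.030, Ogdh -0.072 and Dlst -0.012 in ADF+ENZ against Vehicle, Idh3g -0.014 in ADF+ENZ against ENZ, Cs -0.041, Idh3b -0.14, Ogdh -0.14, Suclg1 -0.043, Fh1 -0.021, Mdh2 -0.11, Sdhd -0.062, Me1 -0.0033, Slc25a11 -0.036 and Lias -0.033 in ADF+ENZ against ADF, Idh3b -0.28, Suclg1 -0.039 and Mdh2 -0.29 in the interaction. With skeletal muscle markers as a covariate these were Suclg1 0.0015 in ENZ against Vehicle, Cs -0.0055 and Ogdh -0.0056 in ADF+ENZ against Vehicle, Mdh2 0.019 in ADF+ENZ against ENZ. In limma-voom these were Suclg1 0.012 in ENZ against Vehicle, Dlst -3.1e-04 in ADF against Vehicle, Cs -0.0011 and Dlst -0.0023 in ADF+ENZ against Vehicle. In DESeq2 these were Dlst 0.0014 in ADF+ENZ against ENZ. With DESeq2 size factors these were Dlst 0.0033 in ADF+ENZ against ENZ. Without a filter these were Ogdh -0.011 and Dlst -0.0017 in ADF+ENZ against Vehicle. With only the groups compared these were Ogdh -3.6e-04 in ADF+ENZ against Vehicle. With protein-coding genes alone, an alternative chosen after seeing the data, these were Ogdh -0.0037 in ADF+ENZ against Vehicle, Suclg1 -0.017 in ADF+ENZ against ADF, Suclg1 -0.015 in the interaction. Leaving out 1 library, ranges that crossed 0 were Dlst -0.042 to 0.068 and Suclg1 -0.052 to 0.045 in ENZ against Vehicle, Cs -0.038 to 0.062, Idh3b -0.11 to 0.0013, Ogdh -0.051 to 0.090, Dlst -5.8e-04 to 0.037, Idh3b to Idh3g -0.075 to 0.017 and Dlst to Ogdh -0.092 to 0.053 in ADF+ENZ against Vehicle, Idh3a -0.099 to 0.035, Idh3g -0.024 to 0.049, Dlst -0.051 to 0.059, Mdh2 -0.085 to 0.036 and Idh3a to Idh3g -0.12 to 0.038 in ADF+ENZ against ENZ, Dlst -0.047 to 0.013 in ADF+ENZ against ADF, Dlst -0.084 to 0.027, Suclg1 -0.010 to 0.087 and Fh1 -0.091 to 0.034 in the interaction, Idh3a to Idh3b -0.068 to 0.069 in ADF against Vehicle. Per kilobase of coding length the levels were 152 for Cs, 41.2 for Idh3a, 55.9 for Idh3b, 57.5 for Idh3g, 55.8 for Ogdh, 119 for Dlst, 33.0 for Suclg1, 19.3 for Fh1 and 154 for Mdh2 CPM. No paired analysis was possible because the labels give the groups no shared replicate numbers. At 251 to 5425 counts per member and library, and 4 libraries a group, small differences lay within the intervals. The ADF libraries and their high percent of reads in no feature cannot be told apart.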
